A study of Mus musculus with 83 samples.

Results

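The Fox, Sox, Tbx and Pax genes encode 4 families of DNA-binding transcription factors, and their messenger RNA was followed in the colon of aging mice. Members were the count table rows whose symbol is Fox, Sox, Tbx or Pax followed by the letter or number of the family member. This gave 73 of the 37764 genes listed, with 39 Fox, 14 Sox, 12 Tbx and 8 Pax genes. Another 9 genes of these families were not analysed here. Of the 73 members, 43 passed the filter on low counts and were tested, namely 26 Fox, 9 Sox, 5 Tbx and 3 Pax genes, among 18325 tested genes.

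The data were bulk RNA-seq counts of polyA RNA from the colon of 83 male C57BL/6J/Ukj mice, with 1 library per mouse. The groups were defined by age alone, namely 3 months (16 mice), 9 months (16), 15 months (16), 24 months (17) and 28 months (18). The labels name no treatment and no altered allele, and all groups share the strain and the male sex and were kept only for aging. The methods of the study state that RNA came from the proximal part of the colon. They describe no separation of tissue layers, so epithelium, muscle, nerves and immune cells can all contribute. The comparisons ask at which ages the level of a member differed, as steps from 3 to 9, 9 to 15, 15 to 24 and 24 to 28 months and across the whole span from 3 to 28 months.

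Fox proteins bind DNA through a forkhead domain, Sox proteins through an HMG box that bends DNA, Tbx proteins through a T-box and Pax proteins through a paired domain. Many are switched on in a small set of cells of the embryo and keep marking the same lineages in adult tissue. In the gut, FoxA factors belong to the epithelium, FoxF and FoxL1 to the mesenchyme beneath it, where they respond to hedgehog ligands from the epithelium, Pax6 and Pax4 to hormone cells, and Tbx21 to type 1 lymphocytes.

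Between 23026370 and 75838290 counts per mouse fell on genes, with a median of 35495123. The labels give 3 library batches, with 4 to 7 mice of every age in each. The labelled tissue was checked against markers. The summed level of 5 goblet cell markers lay between 16570 and 47670 CPM (counts scaled to the library total) over all mice, and that of 5 squamous epithelium markers between 0.227 and 1.03 CPM. In 5 mice, 3 of 3 months and 2 of 9 months, the smooth muscle score (the mean log2 CPM of 5 markers) was 7.20 to 8.15 against a median of 9.52. In 3 other mice, at 9, 15 and 28 months, the deviation from their age and batch was widest over genes, with a root mean square residual of 0.321 to 0.362 against a median of 0.175. The 15-month mouse of these held the lowest level of the 83 mice for 8 of the 43 tested members. Calls that were lost without the 5 mice, and calls lost or gained without the 3, are given with the results. In bulk tissue, fewer cells of a type and less RNA per cell cannot be told apart.

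Levels of different genes were compared in TPM (counts divided by exon length, then scaled to the same total in every mouse). The highest mean over the 83 mice was that of Foxa1, at 113 TPM (SD 12.3), followed by Foxa3 at 89.2 TPM (SD 13.7), Foxd2 at 66.7 TPM (SD 8.75), Foxp4 at 60.6 TPM (SD 6.17), Foxo3 at 59.2 TPM (SD 6.32) and Foxo4 at 49.5 TPM (SD 4.02). The gaps from Foxa1 to Foxa3 and from Foxa3 to Foxd2 were larger than the SD of either gene, while Foxd2 and Foxp4 each lay within 1 SD of the next gene. The highest Sox member was Sox13 at 45.6 TPM (SD 5.5), and Sox4 followed at 30.7 TPM (SD 3.3). Among Tbx genes Tbx3 led with 20.5 TPM (SD 2.87), and the highest Pax member was Pax8 with 2.58 TPM (SD 0.392). Of the 43 tested members, 20 had a mean of at least 10 TPM, 15 lay between 1 and 10 TPM and 8 were below 1 TPM, the lowest being Pax6 at 0.221 TPM (SD 0.0592). The other 30 members all had means below 1 TPM. Fox genes took the first 6 places.

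**Figure D1:**
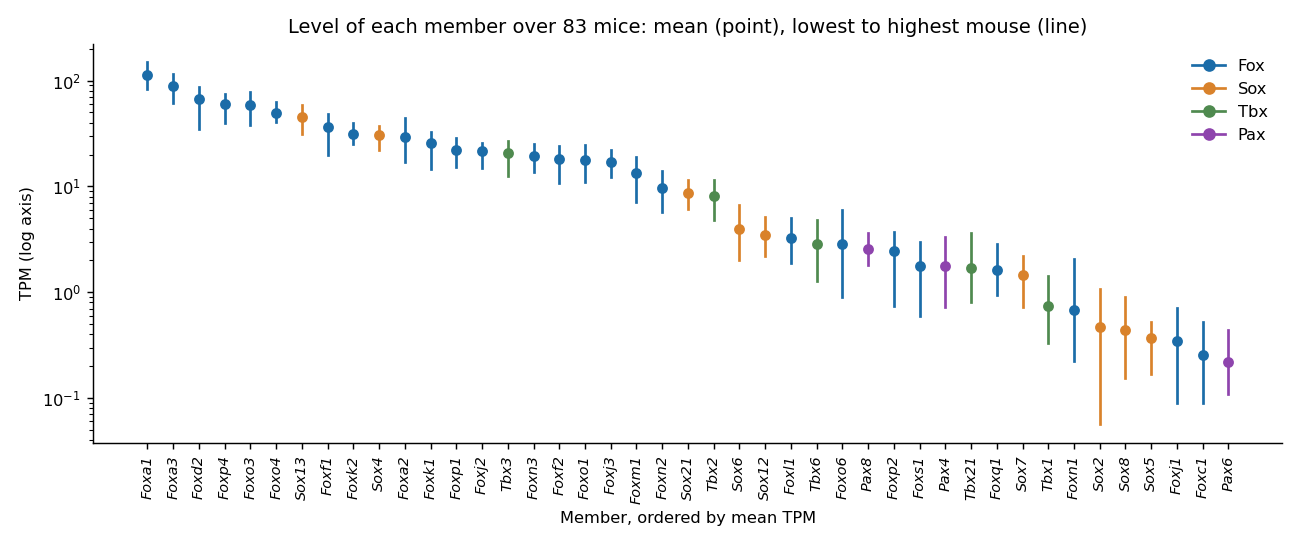
Mean TPM of each of the 43 tested members over 83 mice (points, log axis), with lines from the lowest to the highest mouse and colours by family. Foxa1 stands highest at 113 TPM and Pax6 lowest at 0.221 TPM.

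A member was called when its adjusted p-value was below 0.1 (edgeR's quasi-likelihood test with age and batch, Benjamini-Hochberg adjustment over all 18325 genes tested). Over all 5 ages 26 of the 43 members differed, or 60.5%, beside 54.9% of all tested genes. Between 3 and 28 months 22 members differed (51.2%, beside 49.4% of all genes), of which 10 rose and 12 fell, while 23.5% of all genes rose and 25.9% fell. Between 3 and 9 months 3 members fell and none rose (6.98%, beside 8.69% of all genes, 3.64% higher and 5.05% lower). In the step from 15 to 24 months 2 rose and 4 fell (14%, beside 13.5% of all genes, 6.28% higher and 7.24% lower). From 24 to 28 months 1 rose and 3 fell (9.3%, beside 11.7% of all genes, 5.66% higher and 6.01% lower). The age course of 6 members was not a straight line (14%, beside 16.2% of all genes). With DESeq2 in place of edgeR, which tested 56 members, 15 rose and 11 fell between 3 and 28 months, beside 38.6% of its 25299 genes called. With DESeq2's size factors 2 of the 43 rose and 2 fell between 24 and 28 months, beside 11.7% of all genes. When all 37764 genes were fitted without the filter, none of the 3 calls between 3 and 9 months held, beside 2.34% of all genes called. These shares lay near those of all genes, so the counts are not a result about the families. Between 9 and 15 months no member was called by edgeR or by DESeq2, 5 had an unadjusted p-value below 0.05, and 0.431% of all genes were called, 0.251% higher and 0.18% lower. The median absolute log2 fold change between 3 and 28 months was 0.15 among members and 0.14 among all genes.

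By family, 4 of the 26 Fox genes tested rose and 10 fell between 3 and 28 months, where 23.5% of all genes rose and 25.9% fell. Of the 9 Sox genes, 3 rose and none fell, and of the 5 Tbx genes 3 rose and none fell. Among the 3 Pax genes 2 fell. The families were not tested against each other or against all genes, and the counts are given as a description. Within each of the 3 batches, 18 of the 22 called members kept their direction, the exceptions being Foxa1, Foxp1, Pax8 and Tbx2, each in 1 batch. The 3 members called from 3 to 9 months, the 6 called from 15 to 24 and the 4 called from 24 to 28 months kept their direction in all batches.

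Without the 5 mice of low smooth muscle score, 7 calls between 3 and 28 months were lost, those of Foxa1, Foxa2, Foxf1, Foxp4, Pax8, Tbx1 and Tbx2, and over the 5 ages those of Foxd2, Foxo6, Foxs1 and Pax8. Without the 3 most deviating mice, Foxk1 and Sox5 were gained between 3 and 28 months (adjusted p = 0.00424 and 0.0552), while Foxm1 and Foxp4 were lost. Foxd2, Foxo6 and Foxp4 were then gained between 3 and 9 months (adjusted p = 0.0582, 0.071 and 0.0272) and Foxo6 and Tbx1 between 15 and 24 months (adjusted p = 0.0505 and 0.0943). Over the 5 ages Foxp1 and Foxp4 were gained and Foxm1 was lost, and Foxa3, Foxk2, Foxo6 and Foxp4 then departed from a straight line. The calls of Foxn3 and Foxm1 at single steps are given with those genes.

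**Figure D2:**
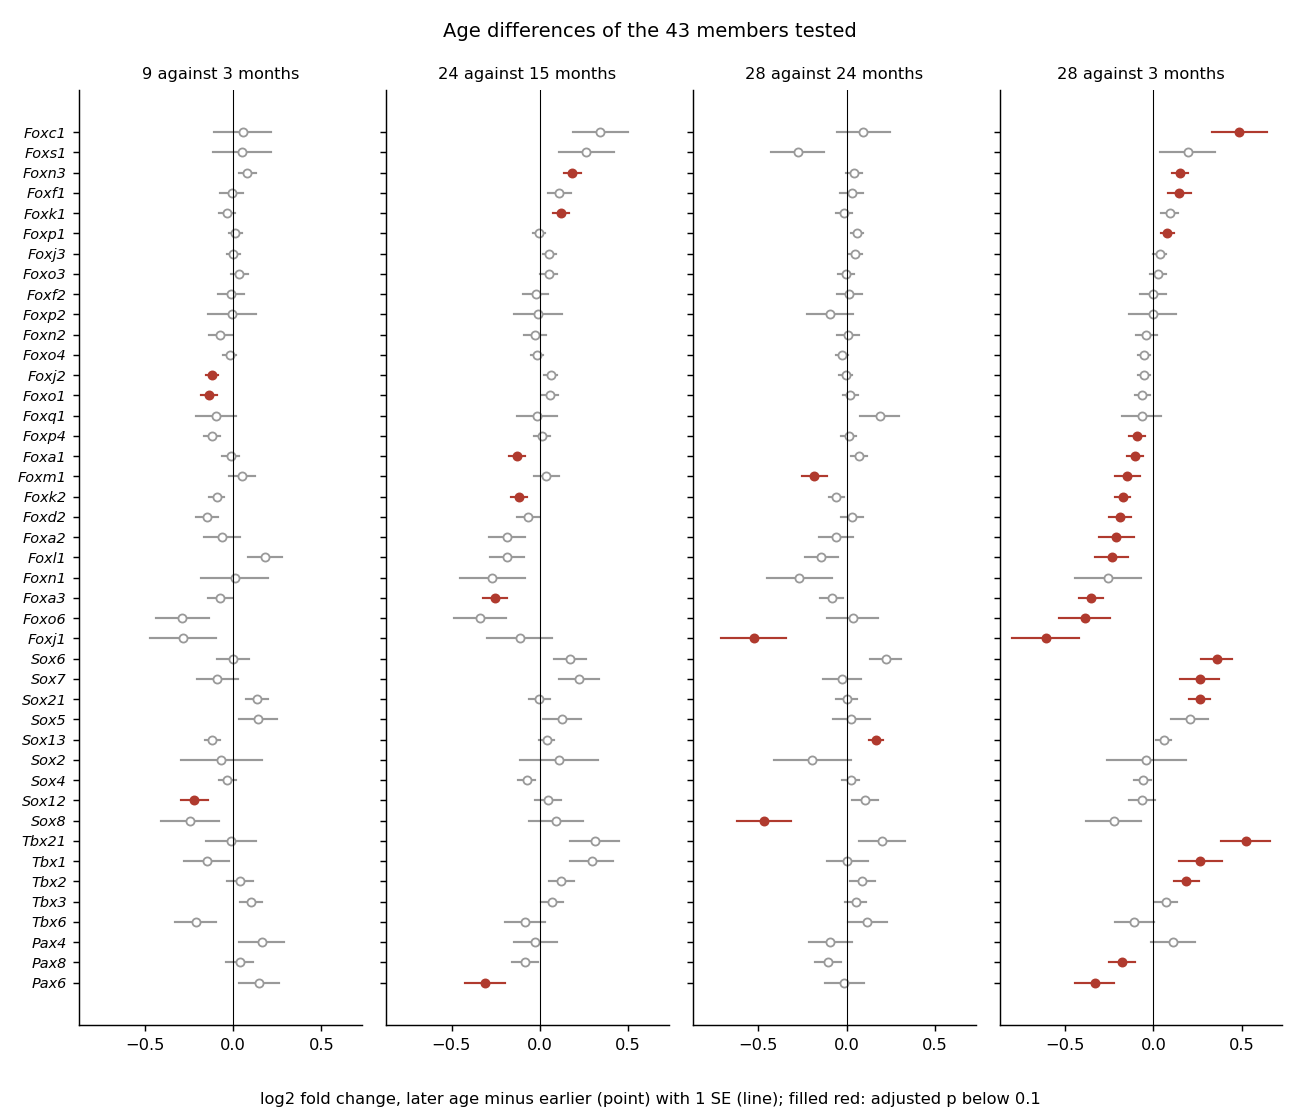
Log2 fold change of the 43 tested members in 4 age comparisons (points, later minus earlier age), with lines of 1 SE, ordered by family and by the difference between 3 and 28 months. Red filled points passed an adjusted p of 0.1, and most of them stand in the panel of 28 against 3 months, with 10 rises and 12 falls.

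FoxA factors open closed chromatin in gut endoderm and act in goblet and hormone cell differentiation. Of the FoxA members, Foxa3 had the largest fitted fall between 3 and 28 months, although the difference from the other members was not tested, and it had the lowest p-value of the 43 tested members over the 5 ages (adjusted p = 4.09e-06). Its lowest, median and highest levels were 54.9, 67.1 and 78.1 CPM in 3-month mice, 48.7, 60.9 and 83.1 in 9-month mice, 45.7, 66.9 and 78.5 in 15-month mice, 41.6, 54.1 and 69.5 in 24-month mice and 39.9, 52.0 and 66.9 in 28-month mice. The 24- and 28-month mice lay lower and overlapped with the younger mice, and none of the 18 mice of 28 months reached the 3-month median. Foxa3 fell by 0.26 ± 0.07 (SE) on the log2 scale between 15 and 24 months (adjusted p = 0.0123) and by 0.35 ± 0.07 between 3 and 28 months (adjusted p = 1.52e-05), that is, it fell by 21.7%. Between 3 and 28 months the differences within the 3 batches were -0.25, -0.38 and -0.40.

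Foxa1 had levels of 118, 129 and 143 CPM in 3-month mice, 109, 126 and 143 in 9-month mice, 90.9, 128 and 147 in 15-month mice, 100.3, 113 and 139 in 24-month mice and 101, 118 and 155 in 28-month mice. The 24-month median lay lowest, and the groups overlapped at every age. Between 15 and 24 months Foxa1 fell by 0.13 ± 0.05 (SE) on the log2 scale (adjusted p = 0.0587, up to 0.127 without the filter), with 2 of 17 mice above the 15-month median. Between 3 and 28 months it fell by 0.11 ± 0.04 (SE) on the log2 scale (adjusted p = 0.0489), and this call was lost without the 5 mice of low smooth muscle score and with that score as a covariate (adjusted p up to 0.284). Foxa2, the least abundant of the FoxA members, ranged from 13.5 to 34.3 CPM with medians of 24.0 CPM at 3, 21.9 at 9, 26.1 at 15, 21.5 at 24 and 20.5 at 28 months. It fell by 0.21 ± 0.10 (SE) on the log2 scale between 3 and 28 months (adjusted p = 0.0753), a call lost under 4 alternatives, among them leaving out those 5 mice (adjusted p up to 0.216).

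The FoxA members varied together among mice of the same age and batch. Over the 83 mice, the residuals of log2 CPM after age and batch means were removed gave Pearson's r of 0.642 for Foxa2 and Foxa3 (Spearman's rho 0.646), 0.553 for Foxa3 and Foxa1 (rho 0.548) and 0.549 for Foxa2 and Foxa1 (rho 0.544). Each had an adjusted permutation p of 0.000184 for r and at most 0.000443 for rho, over 754 relations computed. Without the 2 mice farthest on the x axis the values of r were 0.613, 0.487 and 0.564. Markers of some epithelial cells were called in the same comparisons. Of the 5 goblet cell markers, 4 fell and 1 rose between 3 and 28 months, and their summed level was 25760 to 35830 CPM at 3 months and 20450 to 30780 CPM at 28 months. Of the 5 hormone cell markers, 3 fell over that span, with summed levels of 325 to 575 CPM at 3 months and 342 to 552 CPM at 28 months. Of the 5 enterocyte markers 1 fell, and of the 5 stem cell markers 1 rose and 1 fell. All 4 tested tuft cell markers fell, with summed levels of 47.4 to 64.9 CPM at 3 months and 25.9 to 51.1 CPM at 28 months. In the step from 15 to 24 months, in which Foxa1 and Foxa3 fell, 2 of the 4 tuft cell markers fell, 1 marker fell in each of the goblet, hormone cell and enterocyte lists, and none fell in the stem cell list. The residual of Foxa3 was related to that of the goblet score with r = 0.303 (adjusted permutation p = 0.0559) and rho = 0.284 (adjusted permutation p = 0.0761), and without the 2 farthest mice r was 0.267. The part of these cells in the fall of FoxA genes was not tested.

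Promoters of the FoxA members are shown because all 3 genes fell between 3 and 28 months, and that of Pax9 because its change in that span, described further on, was the largest among the members. They are the bases just before a RefSeq gene start (build GRCm38.p6), written 5′ to 3′ on the strand of the gene, and capitals mark the letters of a forkhead motif. The Foxa1 sequence ends 10 bases short of that start, where an annotated exon overlaps it. The start used for Foxa1 lies 805 bases, and that for Pax9 3704 bases, inside the gene as annotated, and the sequences printed for both are intronic there.
Foxa1 promoter, chr12:57546122-57546361, minus strand: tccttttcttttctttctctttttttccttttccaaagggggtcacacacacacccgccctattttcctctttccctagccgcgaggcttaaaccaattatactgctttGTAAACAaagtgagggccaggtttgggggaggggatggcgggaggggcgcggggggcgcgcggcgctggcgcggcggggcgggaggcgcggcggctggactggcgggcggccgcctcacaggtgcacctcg
Foxa2 promoter, chr2:148046970-148047219, minus strand: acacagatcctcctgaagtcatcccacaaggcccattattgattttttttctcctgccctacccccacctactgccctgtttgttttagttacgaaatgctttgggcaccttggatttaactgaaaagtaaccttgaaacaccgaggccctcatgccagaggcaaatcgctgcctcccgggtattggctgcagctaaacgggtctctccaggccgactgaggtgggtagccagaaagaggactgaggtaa
Foxa3 promoter, chr7:19023540-19023789, minus strand: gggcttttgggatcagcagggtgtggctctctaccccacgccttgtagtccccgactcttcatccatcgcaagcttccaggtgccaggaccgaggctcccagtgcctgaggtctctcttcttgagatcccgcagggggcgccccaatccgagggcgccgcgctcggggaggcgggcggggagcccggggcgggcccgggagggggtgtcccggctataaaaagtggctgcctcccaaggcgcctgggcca
Pax9 promoter, chr12:56695221-56695470, plus strand: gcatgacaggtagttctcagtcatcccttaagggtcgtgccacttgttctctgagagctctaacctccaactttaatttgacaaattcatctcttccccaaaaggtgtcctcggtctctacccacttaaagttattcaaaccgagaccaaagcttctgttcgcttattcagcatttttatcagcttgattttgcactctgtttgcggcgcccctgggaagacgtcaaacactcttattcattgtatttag
Foxa1 (chr12:57540628-57546916, minus strand) carried 1 match of TGTTTAC, a forkhead motif, on the opposite strand, and the other 3 sequences carried none. That motif was found on either strand in 3.17% of the 32851 windows of 250 bases before all gene starts and in 2 of the 65 windows of members, the other being that of Sox12. The Sox motif AACAAT stood in 9.42% of all windows and 3 of the member windows, and the T-box motif GGTGTGA in 3.33% and 1. Neither was in the sequences shown. Promoter entries were found for 50 of the 73 members. A match is a description of letters and not a bound site.

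**Figure D3:**
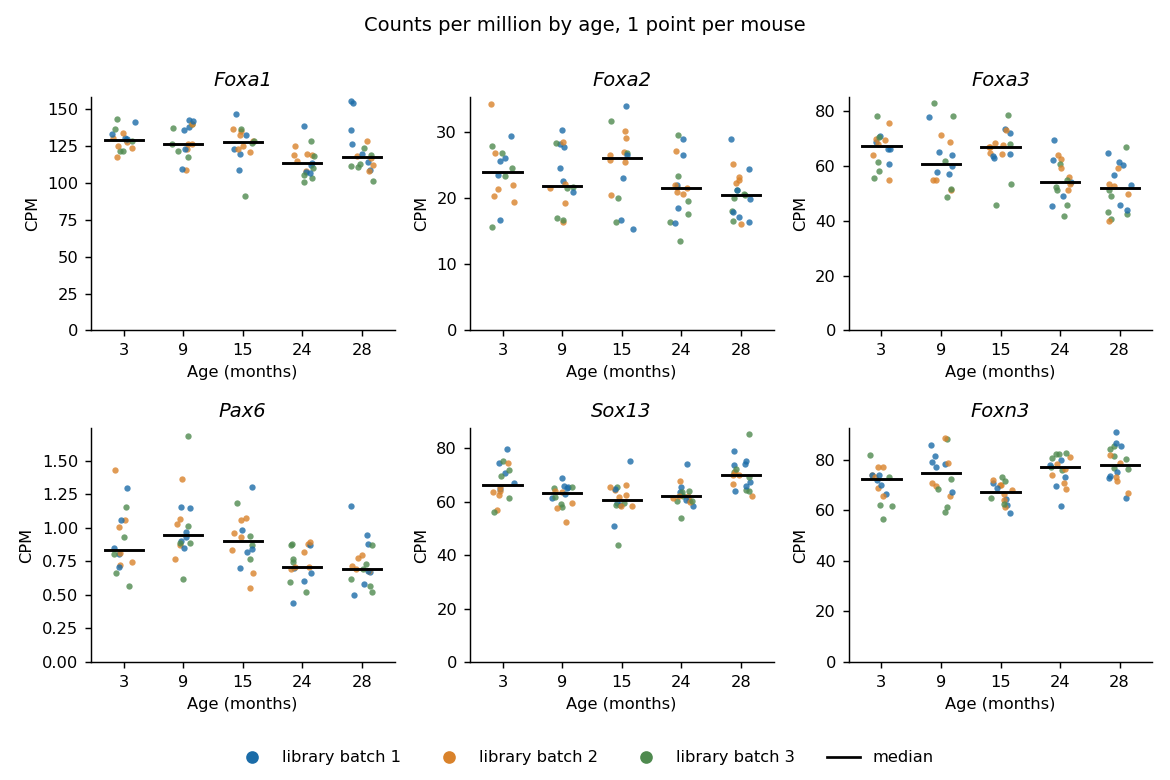
CPM of Foxa1, Foxa2, Foxa3, Pax6, Sox13 and Foxn3 by age in months, 1 point per mouse coloured by library batch, with the median as a bar and axes that start at 0. Foxa3 medians are 54.1 and 52.0 CPM at 24 and 28 months against 66.9 CPM at 15 months, and Sox13 is highest at 28 months with a median of 70.1 CPM.

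Fox members of the mesenchyme did not move in 1 direction. Foxl1 marks telocytes, cells beneath the crypt that supply Wnt ligands. It had levels of 1.63, 3.02 and 3.98 CPM in 3-month mice, 2.39, 3.14 and 4.6 in 9-month mice, 2.38, 3.15 and 3.82 in 15-month mice, 2.21, 2.76 and 3.47 in 24-month mice and 1.75, 2.37 and 3.25 in 28-month mice. Medians were higher at 9 and 15 months and lowest at 28 months, with overlap of all groups. Foxl1 differed over the 5 ages (adjusted p = 0.0015) and fell by 0.24 ± 0.09 (SE) on the log2 scale between 3 and 28 months (adjusted p = 0.0373, up to 0.118 when only these ages were fitted). Foxf1 lies near it on chromosome 8 (chr8:121084386-121088144, plus strand) and acts in gut mesenchyme and muscle. Its medians were 28.8 CPM at 3, 27.0 at 9, 28.1 at 15, 31.1 at 24 and 30.5 at 28 months, and it rose by 0.15 ± 0.06 (SE) on the log2 scale between 3 and 28 months (adjusted p = 0.0572). This call was lost without the 5 mice of low smooth muscle score and with that score as a covariate (adjusted p up to 0.355). Although Foxf1 and Foxl1 lie within 200 kb of each other, their residuals were related with r = 0.193 only (adjusted permutation p = 0.356; rho = 0.243, adjusted permutation p = 0.233), and r was 0.26 without the 2 farthest mice.

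Foxf2, the paralog of Foxf1 on another chromosome, ranged from 8.48 to 18.2 CPM and gave a log2 fold change of -0.00214 ± 0.07 (SE) between 3 and 28 months. Its residual followed that of Foxf1 with r = 0.849 (adjusted permutation p = 0.000184, rho = 0.792), or 0.764 over the 78 mice without a low smooth muscle score. Both followed the pericyte score, with r = 0.829 for Foxf1 (rho 0.809) and 0.818 for Foxf2 (rho 0.747), each at an adjusted permutation p of 0.000184. Of the 4 pericyte markers 3 rose between 3 and 28 months, with a summed level of 149.8 to 460.1 CPM at 3 months and 319.8 to 543 CPM at 28 months. Their part in the difference of Foxf1 was not tested.

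Foxc1, a factor of vessel wall and fibroblasts, had the second largest rise among the members tested between 3 and 28 months. Its levels were 0.176, 0.447 and 0.724 CPM in 3-month mice, 0.207, 0.417 and 0.856 in 9-month mice, 0.234, 0.424 and 0.681 in 15-month mice, 0.345, 0.525 and 0.822 in 24-month mice and 0.208, 0.611 and 0.995 in 28-month mice. The older groups lay higher with wide overlap, and 14 of 18 mice of 28 months were above the 3-month median. Foxc1 rose by 0.49 ± 0.15 (SE) on the log2 scale (adjusted p = 0.00809), with 0.14, 0.84 and 0.57 within the batches. In the same span 4 of 5 blood endothelium markers, 3 of 4 lymphatic endothelium markers and 3 of 4 pericyte markers rose, and their part in the difference of Foxc1 was not tested. The summed lymphatic level was 56.0 to 68.9 CPM at 3 months and 65.4 to 96.3 CPM at 28 months, and those of the other lists are given with Sox7 and Foxf1. Foxd2 had levels of 52.2, 64.2 and 76.6 CPM in 3-month mice and 47.9, 56.3 and 65.1 in 9-month mice. Levels were 29.7, 59.2 and 67.6 CPM in 15-month mice, 44.3, 53.1 and 67.1 in 24-month mice and 45.4, 53.0 and 70 in 28-month mice. The 3-month mice stood highest, and only 1 of 18 mice of 28 months exceeded their median. Foxd2 fell by 0.19 ± 0.06 (SE) on the log2 scale between 3 and 28 months (adjusted p = 0.00976). The difference between 3 and 9 months was -0.15 and missed the threshold (adjusted p = 0.167), which it passed without the 3 most deviating mice (adjusted p = 0.0582). Foxs1, found in mural cells, differed over the 5 ages (adjusted p = 0.0603) with its highest median, 0.952 CPM, at 24 months, a call lost under 4 alternatives, among them leaving out the 5 mice of low smooth muscle score (adjusted p up to 0.213).

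Of the 14 genes of hedgehog signalling, all of which passed the filter, 4 rose and 1 fell between 3 and 28 months, beside 49.4% of all genes called in that span. The epithelial ligand Ihh fell by 0.16 ± 0.06 (SE) on the log2 scale (adjusted p = 0.016), from a median of 101 to 87.6 CPM, while Shh, the scarcer ligand, rose by 0.43 ± 0.09 (SE) on the log2 scale (adjusted p = 5.35e-05), from 2.67 to 3.66 CPM. The response genes Gli1 and Hhip rose by 0.13 and 0.16 on the log2 scale over the same span (adjusted p = 0.0619 and 0.0665). They were the 2 of 14 called from 24 to 28 months, beside 11.7% of all genes, with rises of 0.23 and 0.24 (adjusted p = 0.00542 and 0.0252). Ptch1, the receptor, gave a log2 fold change of 0.06 ± 0.06 (SE) between 3 and 28 months, and Dhh one of 0.11 ± 0.17. In the same span the mesenchymal factors Foxf1 and Foxl1 differed in opposite directions.

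**Figure D4:**
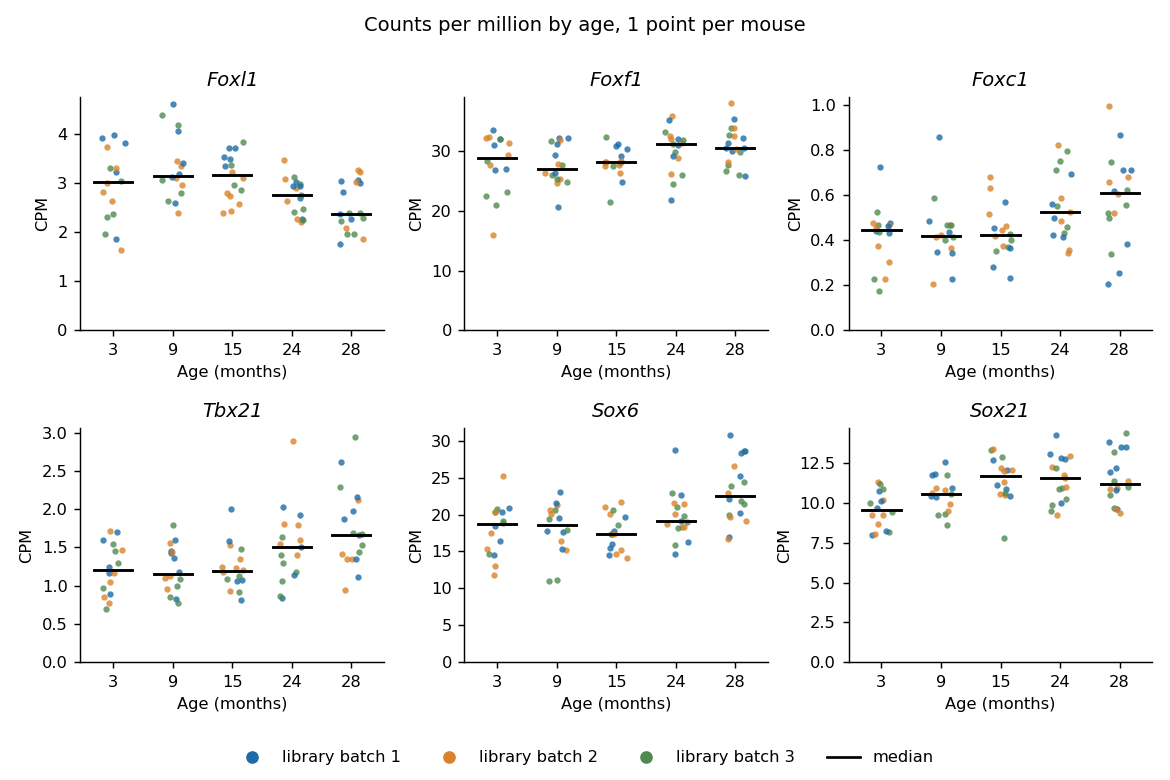
CPM of Foxl1, Foxf1, Foxc1, Tbx21, Sox6 and Sox21 by age in months, 1 point per mouse coloured by library batch, with the median as a bar and axes that start at 0. Foxl1 has its lowest median, 2.37 CPM, at 28 months, and Tbx21 and Sox6 have their highest, 1.67 and 22.5 CPM.

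FoxO factors are held in the cytoplasm by insulin and IGF signalling and drive stress and fasting genes when that signal is low. Foxo3 and Foxo4, the most abundant of them, were not called at any age. Foxo3 ranged from 107 to 192 CPM with a log2 fold change of 0.02 ± 0.05 (SE) between 3 and 28 months, and Foxo4 from 47.3 to 68.5 CPM with -0.05 ± 0.03. Foxo1 stood lower at 9 months than at 3 months. Its levels were 47.0, 52.5 and 68.5 CPM in 3-month mice, 44.6, 48.4 and 56.6 in 9-month mice, 31.5, 49.6 and 57.3 in 15-month mice, 44.0, 51.7 and 54.3 in 24-month mice and 44.5, 51.5 and 58.3 in 28-month mice. It fell by 0.14 ± 0.04 (SE) on the log2 scale between 3 and 9 months (adjusted p = 0.0592), with 2 of 16 mice of 9 months above the 3-month median, and its course was not a straight line (adjusted p = 0.0565). The first call was lost under 3 alternatives, among them the fit of only these ages (adjusted p up to 0.135), and the other was lost under 2 (up to 0.103). Between 3 and 28 months its log2 fold change of -0.06 ± 0.04 (SE) was not called. Foxo6, mainly known from brain, had levels of 1.86, 2.52 and 5.05 CPM in 3-month mice, 1.73, 2.16 and 4.53 in 9-month mice, 1.48, 2.56 and 4.23 in 15-month mice, 1.28, 2.19 and 3.07 in 24-month mice and 0.749, 2.16 and 3.08 in 28-month mice. The groups overlapped, with 5 of 18 mice of 28 months above the 3-month median. Foxo6 fell by 0.39 ± 0.14 (SE) on the log2 scale between 3 and 28 months (adjusted p = 0.0245), with -0.49, -0.34 and -0.29 within the batches.

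Of 17 tested FoxO target genes, 7 rose and 6 fell between 3 and 28 months, beside 49.4% of all genes called. Irs2, an adaptor of the insulin receptor, rose most (0.77 ± 0.10, SE, log2 scale; adjusted p = 5.4e-09), and Bcl6, a repressor of germinal centre B cells, fell most (-0.35 ± 0.09; adjusted p = 0.000738). Of the 5 B cell markers 4 fell in the same span, with a summed level of 7.22 to 80.3 CPM at 3 months and 6.42 to 27.4 CPM at 28 months, and their part in the fall of Bcl6 was not tested. Between 3 and 9 months, when Foxo1 fell, 3 targets rose and 2 fell, beside 8.69% of all genes called, with Pdk4 at 0.73 ± 0.17 and Klf2 at -0.43 ± 0.11. Of 17 genes that feed insulin and AKT signals to FoxO proteins, 5 rose and 4 fell between 3 and 28 months, beside the same 49.4% of all genes, from 0.54 for the growth factor Igf2 to -0.28 for the kinase Sgk1. FoxO activity is set by the place of the protein in the cell, which RNA levels do not measure.

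FoxP factors are repressors. Foxp4, the most abundant of them in TPM, ranged from 64.0 to 116 CPM and Foxp1 from 77.2 to 127 CPM. Foxp4 fell by 0.09 ± 0.04 (SE) on the log2 scale (adjusted p = 0.0903, range 0.0658 to 0.265 over the alternatives), but this call was lost under 9 of the 10 alternatives, all but the replicate block. Foxp1 rose by 0.08 ± 0.03 (SE) on the log2 scale (adjusted p = 0.0586, range 0.0101 to 0.147), a call lost under 3 of them. Foxp2 was not called, with a log2 fold change of -0.00311 ± 0.13 (SE), and ranged widely within ages, from 4.37 to 18.6 CPM among the 3-month mice. Its residual followed the smooth muscle score, with r = 0.904 and rho = 0.785 (adjusted permutation p = 0.000184 and 0.000251), 0.877 without the 2 farthest mice and 0.742 over the 78 mice without a low smooth muscle score. It was related as closely to the enteric neuron score, with r = 0.881 (rho 0.795, adjusted permutation p = 0.000184), or 0.738 over the 78 mice. Smooth muscle and enteric neurons share the muscle layers, so these scores are not independent.

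Among the broadly expressed forkhead factors, Foxn3, a repressor linked to cell cycle checkpoints and metabolism, had the lowest p-value over the 5 ages (adjusted p = 0.000243). It had levels of 56.6, 72.5 and 81.8 CPM in 3-month mice, 59.2, 74.9 and 88.7 in 9-month mice, 59.0, 67.4 and 73.3 in 15-month mice, 61.8, 77.0 and 82.5 in 24-month mice and 64.9, 77.8 and 90.8 in 28-month mice. The 15-month mice stood lowest, and 16 of 17 mice of 24 months were above their median. Foxn3 rose by 0.18 ± 0.05 (SE) on the log2 scale between 15 and 24 months (adjusted p = 0.00799) and by 0.15 ± 0.05 between 3 and 28 months (adjusted p = 0.00621), and departed from a straight line (adjusted p = 0.0157). Its difference between 9 and 15 months was -0.16 (adjusted p = 0.178), which passed the threshold without the 3 most deviating mice (adjusted p = 0.0743).

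Foxk1 and Foxk2, paralogs that repress autophagy genes and promote glycolysis, went opposite ways between 15 and 24 months. Foxk1 had medians of 64.2 CPM at 3, 62.2 at 9, 62.5 at 15, 67.0 at 24 and 68.2 at 28 months and rose by 0.12 ± 0.05 (SE) on the log2 scale (adjusted p = 0.0973). Foxk2 had medians of 57.1 CPM at 3, 52.4 at 9, 57.4 at 15, 51.6 at 24 and 50.4 at 28 months and fell by 0.12 ± 0.04 (SE) on the log2 scale (adjusted p = 0.0825). Both calls were lost under other settings, with adjusted p up to 0.149 and 0.162, and the difference between the genes was not tested. Between 3 and 28 months Foxk2 fell by 0.17 ± 0.04 (SE) on the log2 scale (adjusted p = 0.000757), and this call held in every alternative. Foxj2 fell by 0.12 ± 0.04 (SE) on the log2 scale between 3 and 9 months (adjusted p = 0.0383, and 0.112 without the filter), from a median of 39.2 to 36.9 CPM, and departed from a straight line (adjusted p = 0.0386). Its relative Foxj3 ranged from 49.1 to 77.1 CPM and Foxn2 from 15.2 to 33.2 CPM, and neither was called, with 0.04 ± 0.04 and -0.04 ± 0.06 between 3 and 28 months.

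Foxm1 turns on genes of G2 and mitosis in dividing cells. Its levels were 13.2, 26.6 and 36.6 CPM in 3-month mice, 23.1, 26.5 and 30.7 in 9-month mice, 20.7, 25.6 and 30.6 in 15-month mice, 23.2, 25.9 and 31.3 in 24-month mice and 20.1, 22.7 and 28.7 in 28-month mice. The 28-month mice stood lowest, with 3 of 18 above the 24-month median. Foxm1 fell by 0.18 ± 0.07 (SE) on the log2 scale between 24 and 28 months (adjusted p = 0.0966), but the call was lost under 7 of the alternatives, among them DESeq2's size factors and leaving out the 3 most deviating mice, with adjusted p up to 0.17. Of 12 Foxm1 target genes, 3 fell and none rose in this step, where 6.01% of all genes fell and 5.66% rose. They are named here after their values were seen: the mitotic kinase genes Aurka (-0.21 ± 0.08, SE, log2 scale, adjusted p = 0.0785), Aurkb (-0.21 ± 0.07, adjusted p = 0.053) and Cdk1 (-0.19 ± 0.07, adjusted p = 0.0901). Of the 5 markers of proliferating cells 3 fell as well, Cdk1 being on both lists, and their summed level was 349 to 501 CPM at 24 months and 294 to 471 CPM at 28 months. The residual of Foxm1 was related to the proliferation score with r = 0.896 and rho = 0.868 (adjusted permutation p = 0.000184 and 0.000251; r = 0.851 without the 2 farthest mice). The part of dividing cells in the difference was not tested.

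Foxj1, the factor of motile cilia, was scarce, at 0.115, 0.305 and 0.635 CPM in 3-month mice, 0.0933, 0.288 and 0.531 in 9-month mice, 0.156, 0.341 and 0.588 in 15-month mice, 0.127, 0.318 and 0.574 in 24-month mice and 0.0756, 0.23 and 0.399 in 28-month mice. The 28-month mice stood lowest, with 1 of 18 above the 24-month median. It fell by 0.53 ± 0.19 (SE) on the log2 scale between 24 and 28 months (adjusted p = 0.0668) and by 0.61 ± 0.19 between 3 and 28 months (adjusted p = 0.00617), the largest called fall among tested members. The call between 24 and 28 months was lost without the filter and with the smooth muscle score as a covariate (adjusted p up to 0.13). Foxq1, named in gut epithelium and tumours, and Foxn1, of thymus and skin, ranged from 1.62 to 4.44 CPM and 0.237 to 2.14 CPM and were not called.

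Sox13 departed most clearly, by p-value, from a straight line in age among the tested members. It belongs to the SoxD group, which lacks an activation domain of its own and modulates other Sox factors and TCF. Its levels were 56.1, 66.2 and 79.8 CPM in 3-month mice, 52.6, 63.3 and 69.1 in 9-month mice, 43.9, 60.6 and 75.3 in 15-month mice, 54.1, 62.1 and 74.3 in 24-month mice and 62.1, 70.1 and 85.5 in 28-month mice. Medians fell to 15 months and were highest at 28 months, and all 18 mice of 28 months were above the 24-month median. Sox13 rose by 0.17 ± 0.04 (SE) on the log2 scale between 24 and 28 months (adjusted p = 0.00781), with 0.16, 0.13 and 0.24 within the batches, and its departure from a straight line had an adjusted p of 0.000429, while its difference between 3 and 28 months was 0.06 ± 0.04 and not called. The residual of Sox13 was related inversely to the proliferation score, with r = -0.438 (adjusted permutation p = 0.00156) and rho = -0.403 (adjusted permutation p = 0.00566), and r = -0.376 without the 2 farthest mice. Of the 5 proliferation markers 3 fell in the step in which Sox13 rose, and their part in its difference was not tested.

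Sox6, another SoxD gene, had levels of 11.8, 18.7 and 25.3 CPM in 3-month mice, 11.004, 18.6 and 23.0 in 9-month mice, 14.1, 17.4 and 21.7 in 15-month mice, 14.6, 19.1 and 28.7 in 24-month mice and 16.6, 22.5 and 30.7 in 28-month mice. The older mice stood higher, with 16 of 18 mice of 28 months above the 3-month median and overlap of all groups. Sox6 rose by 0.36 ± 0.09 (SE) on the log2 scale between 3 and 28 months (adjusted p = 0.00067), with 0.47, 0.29 and 0.32 within the batches. Between 24 and 28 months it gave 0.22 (adjusted p = 0.106), just outside the threshold, and was inside it with DESeq2's size factors (adjusted p = 0.096). Sox5, the third SoxD gene, ranged from 0.829 to 2.53 CPM, with a log2 fold change of 0.21 ± 0.11 (SE) between 3 and 28 months (adjusted p = 0.112), which passed the threshold with DESeq2's size factors (adjusted p = 0.0935) and without the 3 most deviating mice (adjusted p = 0.0552). The residuals of Sox5 and Sox6 gave r = -0.0555 and rho = -0.0582 (adjusted permutation p = 0.812 and 0.802; r = -0.178 without the 2 farthest mice).

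Sox21, which antagonises other SoxB factors and is used in hair and nerve cells, stood higher from 9 months on. Its levels were 7.98, 9.56 and 11.3 CPM in 3-month mice, 8.6, 10.6 and 12.6 in 9-month mice, 7.8, 11.7 and 13.4 in 15-month mice, 9.23, 11.6 and 14.3 in 24-month mice and 9.37, 11.2 and 14.4 in 28-month mice. The 3-month mice stood lowest, and 17 of 18 mice of 28 months were above their median. Sox21 rose by 0.26 ± 0.06 (SE) on the log2 scale between 3 and 28 months (adjusted p = 0.000322), with no step called on its own. Sox2, which it opposes, ranged from 0.0388 to 0.686 CPM and gave a log2 fold change of -0.04 ± 0.22 (SE). Sox4, a SoxC gene of progenitors, was not called, with -0.06 ± 0.05 between 3 and 28 months. Its residual followed the stem cell score, with r = 0.594 and rho = 0.499 (adjusted permutation p = 0.000184 and 0.0012), and r = 0.512 without the 2 farthest mice. Sox12, its paralog, fell by 0.22 ± 0.08 (SE) on the log2 scale between 3 and 9 months (adjusted p = 0.075), from a median of 5.69 to 4.76 CPM, and departed from a straight line (adjusted p = 0.0547). The first call was lost under 4 alternatives, among them no batch term and the fit of only these ages (adjusted p up to 0.156), and the other was lost under 2 (up to 0.1).

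Sox7, an endothelial factor, had medians of 1.41 CPM at 3, 1.29 at 9, 1.63 at 15, 1.72 at 24 and 1.87 at 28 months, and rose by 0.26 ± 0.11 (SE) on the log2 scale between 3 and 28 months (adjusted p = 0.0494). Of the 5 blood endothelium markers, 4 rose and none fell in this comparison, and their summed level was 98.5 to 121 CPM at 3 months and 105 to 147 CPM at 28 months. The residual of Sox7 was related to the endothelial score with r = 0.416 and rho = 0.373 (adjusted permutation p = 0.00916 and 0.0256; r = 0.357 without the 2 farthest mice), and the part of endothelium in the difference was not tested. Sox8, of neural crest and glia, had levels of 0.165, 0.426 and 0.795 CPM in 3-month mice, 0.159, 0.393 and 0.534 in 9-month mice, 0.218, 0.501 and 0.807 in 15-month mice, 0.304, 0.519 and 0.965 in 24-month mice and 0.17, 0.345 and 0.717 in 28-month mice. It was highest at 24 months and fell by 0.47 ± 0.15 (SE) on the log2 scale by 28 months (adjusted p = 0.0444), when 3 of 18 mice were above the 24-month median. Of the 4 enteric glia markers 1 fell in that step.

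Tbx21, or T-bet, directs the type 1 programme of T and NK cells and gave the largest called rise among tested members. Its levels were 0.688, 1.21 and 1.71 CPM in 3-month mice, 0.778, 1.15 and 1.79 in 9-month mice, 0.81, 1.19 and 2.00 in 15-month mice, 0.838, 1.51 and 2.9 in 24-month mice and 0.949, 1.67 and 2.95 in 28-month mice. The older mice stood higher, with 16 of 18 mice of 28 months above the 3-month median and overlap of the groups. Tbx21 rose by 0.52 ± 0.14 (SE) on the log2 scale between 3 and 28 months (adjusted p = 0.00127), with 0.48, 0.30 and 0.71 within the batches. Of 9 tested T-bet target genes 4 rose and 1 fell, a count near the 49.4% of all genes called, and their values ran from 0.77 ± 0.15 for Prf1, the pore protein of cytotoxic granules, to -1.15 ± 0.20 for the chemokine Xcl1. Of 5 T and NK cell markers 2 rose, with a summed level of 14.6 to 39.1 CPM at 3 months and 20.5 to 69.4 CPM at 28 months. The residual of Tbx21 followed that score with r = 0.539 and rho = 0.543 (adjusted permutation p = 0.000335 and 0.000251; r = 0.468 without the 2 farthest mice). The part of more lymphocytes in the difference was not tested. Eomes, the T-box gene most like Tbx21 in lymphocytes and no member, rose by 1.05 ± 0.15 between 3 and 9 months (adjusted p = 7.5e-07), a step in which Tbx21 gave -0.01 ± 0.14. The difference between the genes was not tested.

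Tbx2, a repressor in mesenchyme, had medians of 9.75 CPM at 3, 9.83 at 9, 9.12 at 15, 9.73 at 24 and 10.4 at 28 months and rose by 0.19 ± 0.07 (SE) on the log2 scale between 3 and 28 months (adjusted p = 0.0275), a call lost without the 5 mice of low smooth muscle score (adjusted p = 0.163). Its paralog Tbx3 ranged from 28.4 to 60.2 CPM and was not called, with 0.07 ± 0.06. Tbx1, of pharyngeal and vessel mesoderm, rose by 0.27 ± 0.12 (SE) on the log2 scale between 3 and 28 months (adjusted p = 0.0666, up to 0.194 over the alternatives) and differed over the 5 ages (adjusted p = 0.00592). Tbx6, of somite mesoderm, ranged from 0.722 to 2.93 CPM and was not called.

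Pax6 acts in the differentiation of hormone cells of the gut and had the lowest TPM of the tested members. Its levels were 0.563, 0.832 and 1.43 CPM in 3-month mice, 0.619, 0.949 and 1.68 in 9-month mice, 0.552, 0.902 and 1.3 in 15-month mice, 0.437, 0.709 and 0.894 in 24-month mice and 0.5, 0.691 and 1.17 in 28-month mice. The 24- and 28-month mice stood lower, and none of the 17 mice of 24 months reached the 15-month median. Pax6 fell by 0.31 ± 0.11 (SE) on the log2 scale between 15 and 24 months (adjusted p = 0.0754, up to 0.165 over the alternatives) and by 0.33 ± 0.11 between 3 and 28 months (adjusted p = 0.0124), with -0.27, -0.38 and -0.31 within the batches. Of the 5 hormone cell markers, 1 fell and none rose between 15 and 24 months, and their summed level was 333 to 555 CPM at 15 months and 329.5 to 524 CPM at 24 months. Their part in the fall of Pax6 was not tested. Pax4, the other Pax factor of these cells, had medians of 0.757 CPM at 3, 0.775 at 9, 0.895 at 15, 0.857 at 24 and 0.784 at 28 months and was not called, with 0.11 ± 0.12 between 3 and 28 months. Pax8, known from thyroid and kidney, fell by 0.18 ± 0.07 (SE) on the log2 scale between 3 and 28 months (adjusted p = 0.0415), a call lost under 3 alternatives, among them leaving out the 5 mice of low smooth muscle score (adjusted p up to 0.313). Its residual was related inversely to the smooth muscle score, with r = -0.394 and rho = -0.357 (adjusted permutation p = 0.00215 and 0.00822; r = -0.332 without the 2 farthest mice).

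The other 30 members did not pass the filter. Each had at least 1 count in at least 1 mouse, and their sums over the 83 mice lay between 1 and 465 counts, with fewer than 20 counts for 14 of them. Pax9 had the 465 counts and is described here because its values were seen to differ. It encodes a paired box factor of pharyngeal pouches, teeth and oral and oesophageal epithelium, and lies at chr12:56691767-56712822, plus strand. Its counts summed to 35 in the 16 mice of 3 months, 30 in 16 mice of 9 months, 37 in 16 mice of 15 months, 129 in 17 mice of 24 months and 234 in 18 mice of 28 months. Pax9 levels were 0, 0.0526 and 0.119 CPM in 3-month mice, 0, 0.0449 and 0.167 in 9-month mice, 0, 0.0621 and 0.128 in 15-month mice, 0.136, 0.191 and 0.302 in 24-month mice and 0.111, 0.389 and 0.65 in 28-month mice. The lowest 24-month mouse (0.136 CPM) stood just above the highest 15-month mouse (0.128 CPM) but below the highest 9-month mouse (0.167 CPM). The 28-month mice spread more widely and also overlapped with the younger ones. The 28-month mouse with the most counts held 24 of the 234.

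When all 37764 genes were fitted without the filter, Pax9 rose by 1.59 ± 0.29 (SE) on the log2 scale between 15 and 24 months (edgeR's quasi-likelihood test, adjusted p = 0.000267), by 0.81 ± 0.22 between 24 and 28 months (adjusted p = 0.0299) and by 2.50 ± 0.27 between 3 and 28 months (adjusted p = 7.73e-12). DESeq2 gave 1.64 ± 0.31 (adjusted p = 2.31e-05) and 2.56 ± 0.30 (adjusted p = 1.23e-15) for the first and the last of these. For the step from 24 to 28 months DESeq2 gave 0.82 ± 0.21 and no adjusted p-value, so that call was not repeated there. In that fit 4.04% of all genes were called from 15 to 24 months, 3.87% in the last step and 25.1% over the whole span. Differences at the early steps were -0.18 ± 0.37 from 3 to 9 months and 0.27 ± 0.37 from 9 to 15 months. Mean levels at 15 and 24 months were 0.0478 and 0.222 CPM in batch 1, 0.067 and 0.205 CPM in batch 2 and 0.0811 and 0.1765 CPM in batch 3. Pax9 departed from a straight line with an adjusted p of 0.0486. Markers of squamous epithelium, a tissue that expresses Pax9, had a summed level of 0.43 to 1.03 CPM at 3 months and 0.355 to 1.02 CPM at 28 months. Krt14, the only 1 of the 5 that passed the filter, fell by 0.37 ± 0.18 (SE) on the log2 scale between 3 and 28 months (adjusted p = 0.0859). The part of such tissue in the difference of Pax9 was not tested.

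**Figure D5:**
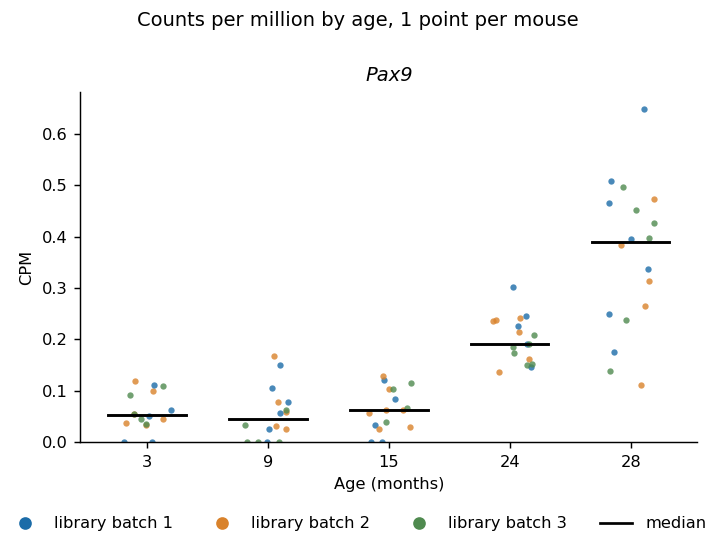
CPM of Pax9 by age in months, 1 point per mouse coloured by library batch, with the median as a bar. Medians lie between 0.0449 and 0.0621 CPM up to 15 months and are 0.191 and 0.389 CPM in the 24- and 28-month mice, and all 3 batches contribute to the rise.

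In the same fit without the filter, 7 further low members were called between 3 and 28 months. With Pax9 this made 8 of the 30 low members, beside 25.1% of all genes called. The count is thus not a result about these members, and the 7 are named after their values were seen. Tbx18, a factor of pericytes and smooth muscle, rose from 6 counts in 5 of the 3-month mice to 38 counts in 17 of the 28-month mice (2.15 ± 0.50 on the log2 scale, SE; adjusted p = 0.000679). Foxl2 rose from 7 to 31 counts and Tbx15 from 46 to 93 counts. The other 4 were called lower, with Sox11 from 65 to 39 counts and Foxn4 from 11 to 3. Sox3 went from 5 to 0 and Foxi2 from 3 to 0, and the 3-month counts came from 4 and 3 of the 16 mice. In the quasi-likelihood test over all 5 ages, Tbx15, Sox11, Foxn4 and Foxi2 were not called (adjusted p = 0.176, 0.105, 0.2305 and 0.127). With so few counts neither the calls nor the sizes of these changes are firmly set, and no fold is given for those at 0.

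Of the 754 relations computed over the residuals of 34 members with a mean of at least 1 CPM, 178 had an adjusted permutation p below 0.1, 14 of 40 between members and 164 of 714 with 1 of 21 cell type scores. Of these, 108 kept their sign with an absolute r of at least 0.3 when the 2 farthest mice were left out. The members and scores come from the same libraries, and the scores overlap in the tissue layers they follow. Beside those given above, Foxj3 was related inversely to the macrophage score (r = -0.552, rho = -0.537, adjusted permutation p = 0.000184 and 0.000251, and r = -0.532 without the 2 farthest mice). Tbx2 followed the fibroblast score (r = 0.538, rho = 0.453, adjusted permutation p = 0.000184 and 0.00105, and r = 0.519 without the 2 farthest mice). Foxp1 followed the score of interstitial cells of Cajal, the pacemakers of gut muscle (r = 0.522, rho = 0.503, adjusted permutation p = 0.000184 and 0.000251, and r = 0.493 without the 2 farthest mice). The smallest p that the 100000 permutations can give is 1e-05. Of 6 tested Groucho and Tle corepressors, partners of several Fox, Tbx and Pax factors, none was called between 3 and 28 months, and Tle3 fell by 0.20 ± 0.07 between 3 and 9 months (adjusted p = 0.0622).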

How the data were processed

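RNA of the colon of 83 mice was sequenced, and the deposited gene counts are whole, unnormalised counts of reads per gene made by the authors. The submitters' processing notes name cutadapt 2.8, HISAT2 2.1.0, SAMtools 1.9 and featureCounts of Subread 2.0.1 with build GRCm38.p6. The authors kept uniquely mapped reads and counted proper pairs by strand. Gene positions and exon lengths came from GENCODE on GRCm38, which held 37652 of the 37764 genes, and the promoter sequences from RefSeq. Counts were filtered by edgeR's filterByExpr on age, scaled by TMM and fitted over all mice by edgeR 4.0.16 (R 4.3.3, quasi-likelihood test) with age group and library batch as factors. Benjamini-Hochberg adjustment ran over all 18325 genes tested, at a threshold of 0.1. For edgeR, the SE was the absolute log2 fold change divided by the square root of the F statistic of its test. CPM and TPM were computed from these counts, and plots were drawn with matplotlib 3.10.9.

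For relations, log2 CPM was taken with 2 as prior count, and mice were permuted 100000 times within age and batch (two-sided). Members named with values were those called at single steps or off a straight line, the 12 of lowest p over all ages, the 6 largest called rises and falls between 3 and 28 months, relatives of these and the 6 highest in TPM. The members and lists were chosen with earlier results of these data known. Alternatives were DESeq2 1.42.0, its size factors, no filter, no batch term, a replicate block, a smooth muscle covariate, fits of only the ages compared and a threshold of 0.05. Leaving out 5 mice of low smooth muscle score or the 3 mice farthest from their group was added after the data were seen. No pair among 649 pairs of mice of the same age was as alike as counting noise allows (lowest variance ratio 11.8). In simulated counts of 18325 genes, 100 genes were given each size of change. For 28 against 3 months, a log2 change of 0.25 was called in 49 of 100 genes and one of 0.5 in 84 of 100. For 24 against 15 months the numbers were 49 and 75. Unchanged genes called were 7 in the first comparison and 13 in the other. Far fewer genes were changed than were called in the data, so these rates do not carry over to the data.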

Additional observations from a re-analysis of the deposited data

How the results depend on the processing

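Of the 35 calls of named members, 16 held under every alternative, and none reversed its direction. Between 3 and 9 months the number of members called, 3 in the fit reported, was 0 without the filter (beside 2.34% of all genes called), 1 at a threshold of 0.05 (4.14%) and 6 without the 3 mice farthest from their group (11.2%). Between 9 and 15 months it was 1 without these mice (1.08%). Between 15 and 24 months it was 3 without the filter (4.04%), 2 at a threshold of 0.05 (7.53%) and 10 when only these ages were fitted (19.1%), against 6 (13.5%). Between 24 and 28 months it was 2 at a threshold of 0.05 (7.11%) and 2 with the smooth muscle score as a covariate (13.2%), against 4 (11.7%). Members off a straight line numbered 10 without the 3 mice (21.7%), against 6 (16.2%). The cause of these shifts was not tested. Replicate numbers in the labels do not pair the mice: same-numbered mice deviated with a mean correlation of 0.0021, and 3 of 83 correlated best with their own number. With the replicate number as a block, 19 of the 43 members passed the threshold for 28 against 3 months, beside 47.1% of all genes. This block gave 3 members for 9 against 3 months (8.22%) and 0 for 15 against 9 months (0.333%). For 24 against 15 months it gave 4 (11.6%), and for 28 against 24 months 4 (9.71%). In the tests over all ages and of a straight line it gave 24 (51.9%) and 6 (14.5%). These counts lay near the shares of all genes. The 30 members under the filter hold too few counts for small differences to be detectable.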
